A study of Bos grunniens and Bos grunniens x Bos taurus with 2 samples.

Results

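Ubiquitin conjugating enzymes and ubiquitin-specific proteases of the testis were taken from the gene annotation by name. Every feature whose symbol starts with UBE2 followed by a letter, or with USP followed by a digit, was a member, which gave 63 of 26961 features, 20 UBE2 genes and 43 USP genes. The rule itself uses no expression value. The rule reads names, so *USP6NL*, which encodes a GTPase-activating protein for Rab proteins and no protease, was also a member. Members are known to the annotation by symbol, and *UBE2A*, *UBE2D2*, *UBE2D3*, *UBE2L6*, *UBE2N*, *UBE2S*, *USP9Y*, *USP18* and *USP26* were not analysed here because no feature carried those symbols.

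Ubiquitin is a small protein that is attached to other proteins by an activating enzyme (E1), a conjugating enzyme (E2) and a ligase (E3). A chain of ubiquitin can send its target to the proteasome, whereas a single ubiquitin or another chain type changes how histones, DNA repair proteins and membrane proteins work. Deubiquitinating enzymes, of which the USP proteases are the largest family, remove it again. In the testis, ubiquitin is known for its part in DNA repair and silencing of the sex chromosomes during meiosis, and in the removal of histones and of cytoplasm from spermatids.

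Testis cells of 1 sexually mature yak (*Bos grunniens*, 4-year-old per the study's methods) and of cattle-yak, a cross of *Bos grunniens* and *Bos taurus*, were captured as 1 droplet library each. Both testes had been frozen, thawed and digested with enzymes, the labels name no treatment, and they place the cattle-yak past sexual maturity without an age. The study's methods describe the yak only. The number of cattle-yak animals is not given in the sources used here, and 1 was assumed. Because each cross was 1 library, no test was run, and a difference between the libraries is one between those libraries and has no replicate check. The authors' barcode list placed 1127 yak cells in 5 germ cell types, with 84 spermatogonial stem cells (SSC), 486 spermatogonia (SPG), 72 early spermatocytes (early-SPC), 261 late spermatocytes (late-SPC) and 224 spermatids (SPT).

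The yak library held 60816600 UMIs in 11991 cells and the cattle-yak library 43774841 UMIs in 8930 cells, and 24 barcodes occurred in both. After limits on genes, UMIs and mitochondrial share, 10324 yak and 7092 cattle-yak cells were kept. A further 790 yak and 528 cattle-yak cells lay above the upper limits and are called deep cells. Deep cells may hold doublets, which was not tested. Levels are in CPM, the summed counts of a gene in a group of cells as a share of all counts of that group, scaled to a total of 1000000. The intervals are exact 95% Poisson intervals that cover counting error only. Where a gene had 0 counts, the limit given is the level that 3 counts would have made. Such 3′ counts depend on where each gene's annotated end lies, so levels were compared within a gene and not between genes. In these summed counts, fewer cells using a gene and less RNA per cell cannot be told apart.

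The authors made the germ cell types by clustering expression in the same cells, and whether members took part in it is not known. Folds between these types are therefore not between groups set independently of the members. The germ cell types were compared with marker genes before use. Of the 84 SSC, 20 fell into a cluster of cells with endothelial markers (EC-like), and the endothelial marker list summed to 2201 CPM in SSC against 537 in SPG and 4147 in EC-like cells. Markers of contractile muscle cells summed to 4544 CPM in SPG, against 5920.3 over the somatic classes. Of the 261 late-SPC, 195 fell into clusters with spermatid markers and 66 into spermatocyte clusters. Deep germ cells carried less of this foreign signal. Their endothelial list summed to 239.6 CPM in spermatogonium-like (SPG-like), 116 in spermatocyte-like (SPC-like) and 59.6 in spermatid-like (SPT-like) deep cells. Many stage patterns below are therefore given in both sets of cells. Where only the germ types are given, the pattern carries the limit of this signal. The macrophage list, which includes *AIF1*, however summed to 1643 CPM in deep SPT-like cells against 8.08 in deep SPG-like cells. Which of its genes made up this sum was not examined, so it is not called foreign signal here. The part of these markers in the results was not tested.

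All 63 members had at least 1 UMI in a library, and 51 reached 20 summed counts in the germ cell types, whereas *USP19* and *USP43* had none there. A member was called higher in a group when its log2 ratio to the cells it was compared with, after 1 CPM was added to both, was at least 1, a 2-fold difference. By this rule 4 of 51 members were higher in SSC than in the other germ types, where 11.3% of all genes were. In SPG 9 were higher (all genes 16.1%), in early-SPC 6 (18.9%), in late-SPC 11 (18.9%) and in SPT 8 (16.9%). As shares of 51 these counts lie near those of all genes, so no type stood out by the number of members, and the medians of the members (from -0.65 in early-SPC to -0.05 in SPG) were likewise close to those of all genes (-0.86 and -0.09). With ratios centred on the median of all genes, 8 members were higher in SSC and 15 in early-SPC. The types differed in which members were high.

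Summed over the 20 UBE2 genes, the level was 784 CPM (95% interval 649.9 to 937) in SSC, 1178 in SPG, 1636 in early-SPC, 2404 CPM (95% interval 2267 to 2547) in late-SPC and 2102 in SPT. The 43 USP genes stayed within a narrower range, from 2900.4 CPM in SSC to 3641 in late-SPC. In SPT the UBE2 sum exceeded that of SPG by 0.84 on the log2 scale (95% interval 0.67 to 1.00), while the USP sum differed by -0.07 (-0.19 to 0.04). Genes with many counts dominate such sums, and the UBE2 sum of late-SPC held 839.8 CPM of *UBE2T* and 388 of *UBE2J2*.

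Deep yak germ cells gave far more counts per gene, 13193745 UMIs in 406 cells, and formed 8 clusters that are named here by a leading gene. SPG-like cells formed a *PIWIL4* and a *CRABP1* cluster, SPC-like cells a *CTCFL*, a *PIWIL1* and an *LHX1* cluster, and SPT-like cells a *FAM71B* and a *PRSS55* cluster. A *NOTO* cluster of 51 cells, with as many SPC as SPT markers, met no naming rule and is given by its leading gene only. No member was among the genes used for clustering, and the order in which the clusters are listed was chosen for reading, since no trajectory was fitted. Of 61 members with at least 20 counts, 23 were higher and 14 lower in SPG-like cells than in the other stages (higher: 34.7% of all genes, lower: 30.1%). In SPC-like cells 10 were higher and 20 lower (higher: 17% of all genes, lower: 37.1%), and in SPT-like cells 12 were higher and 33 lower (higher: 21.5%, lower: 48.4%). Medians of the members were 0.32, -0.55 and -1.26 in the 3 stages beside 0.26, -0.50 and -0.92 over all genes, so the number and direction of members again lay near those of all genes.

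**Figure D1:**
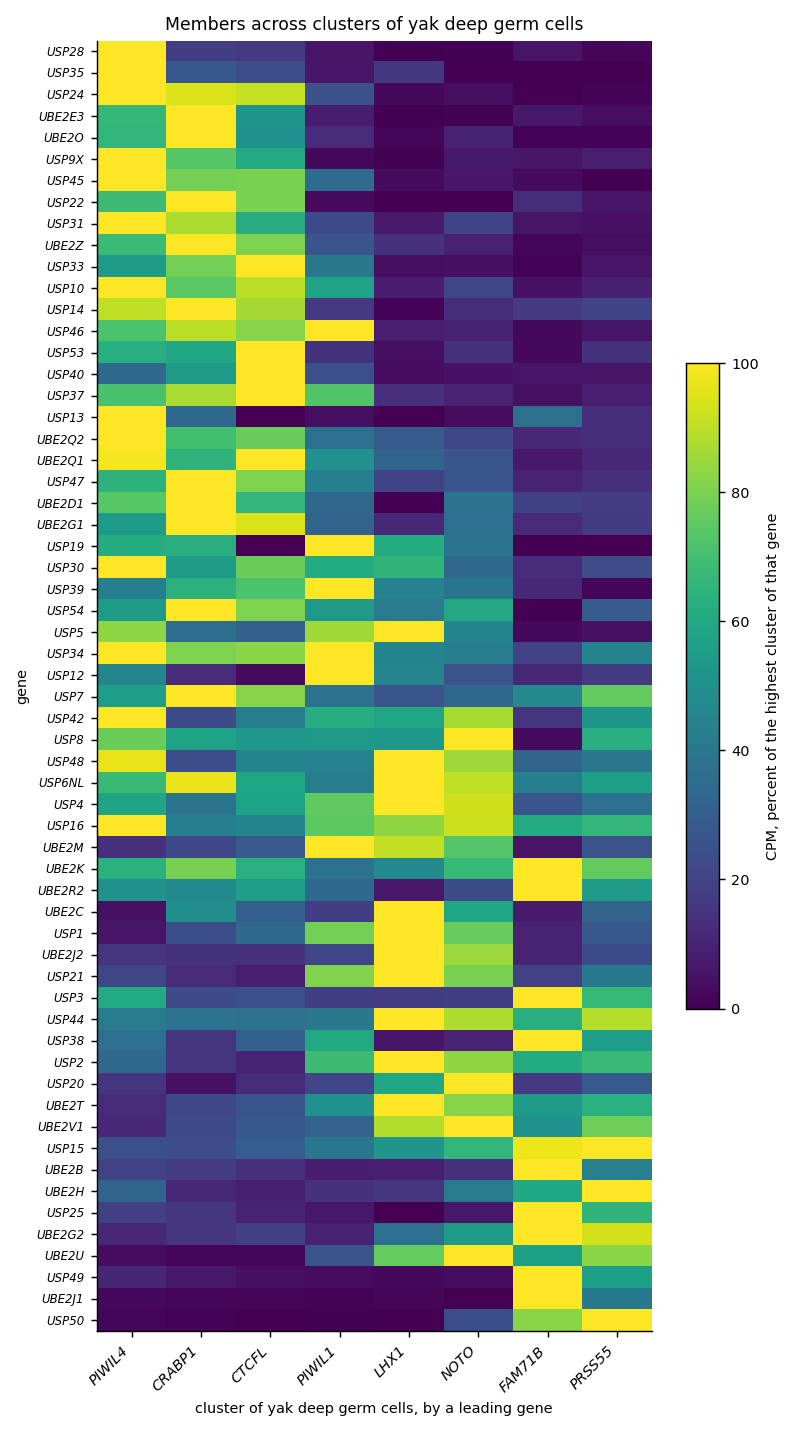
Levels of 60 of the 61 members with at least 20 counts in yak deep germ cells (rows) across 8 clusters named by a leading gene (columns), as percent of the cluster in which that gene was highest. A block of members at the top was high in the *PIWIL4*, *CRABP1* and *CTCFL* clusters, a block below the middle in the *LHX1* and *NOTO* clusters, and *USP50*, *UBE2J1* and *USP49* at the bottom in the *FAM71B* and *PRSS55* clusters.

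Among the conjugating enzymes, the pair anchored in the membrane of the endoplasmic reticulum (ER), *UBE2J1* and *UBE2J2*, which act in the removal of misfolded proteins, peaked at different stages. *UBE2J2* counts came to 52.3 CPM in SSC, 82.4 in SPG, 126 in early-SPC, 388 in late-SPC and 110.4 in SPT. It was 4.13-fold (95% interval 3.27 to 5.22) higher in late-SPC than in the other types. The authors' table divides late-SPC into 2 subclusters, and *UBE2J2* stood at 536 CPM (95% interval 456 to 626) in the one of 196 cells and at 145 CPM (95% interval 94.5 to 212) in the one of 65, the latter interval including the level of early-SPC. As given above, 195 late-SPC cells fell with spermatid markers and 66 with spermatocyte markers. How they divide over the subclusters was not examined. Kept SPC-like cells of the yak held 156 CPM of *UBE2J2* (95% interval 130 to 186). *UBE2J1*, whose loss is known to leave male mice infertile, instead measured 6.53 CPM in SSC, 4.85 in SPG, 3.51 in early-SPC, 4.2 in late-SPC and 209.8 in SPT, the last with a 95% interval of 159 to 272 CPM. SPT exceeded the other types 46-fold (95% interval 20.9 to 119), although those types together held only 7 counts.

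The deep cells separated this pair further. *UBE2J2* stood at 125 CPM in *PIWIL4*, 123 in *CRABP1*, 120.1 in *CTCFL*, 174 in *PIWIL1*, 839.9 in *LHX1*, 715 in *NOTO*, 81.7 in *FAM71B* and 187 in *PRSS55* cells. *UBE2J1* stood at 11.4 CPM in *PIWIL4*, 8.4 in *CRABP1*, 8.28 in *CTCFL*, 4.88 in *PIWIL1*, 9.22 in *LHX1*, 2.14 in *NOTO*, 576 in *FAM71B* and 233 in *PRSS55* cells. The *LHX1* and *NOTO* cells thus held high *UBE2J2* with low *UBE2J1*, and the *FAM71B* cells the reverse, with counting intervals that do not overlap in either gene. When each cell was thinned to 10000 UMIs, a *UBE2J1* UMI was seen in 87.3% of 71 SPT-like, 5.79% of 121 SPC-like and 7.59% of 290 deep somatic cells, so the share in SPC-like cells was not above that in somatic cells. No cell was too shallow for this number, and without thinning the shares were 93%, 16.5% and 20.3%.

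The other ER-linked conjugating enzymes were *UBE2G2*, *UBE2G1* and *UBE2K*. *UBE2G2* counts came to 6.53 CPM in SSC, 33.9 in SPG, 24.6 in early-SPC, 98.7 in late-SPC and 195 in SPT, and in deep cells reached 340.1 CPM (95% interval 309 to 374) in the *FAM71B* and 318 in the *PRSS55* cluster against 38.3 in the *PIWIL4* cluster. *UBE2K*, which builds chains that lead to the proteasome, ranged from 26.1 CPM in SSC, on 4 counts, to 84 in late-SPC. Among the deep stages it was instead highest in SPT-like cells, at 133 CPM, and lowest in SPC-like cells, at 71.5. *UBE2G1* was at or below 8.08 CPM in every germ type, too few counts for an order.

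*UBE2T* belongs to the Fanconi anaemia pathway of DNA crosslink repair, where it adds a single ubiquitin to FANCD2, and *USP1* is the protease that takes it off. Both followed one course. *UBE2T* counts came to 71.9 CPM in SSC, 165 in SPG, 611 in early-SPC, 839.8 in late-SPC and 431 in SPT. *USP1* counts came to 98 CPM in SSC, 178 in SPG, 622 in early-SPC, 827 in late-SPC and 217 in SPT. In deep cells *UBE2T* stood at 158 CPM in *PIWIL4*, 284 in *CRABP1*, 348 in *CTCFL*, 668 in *PIWIL1*, 1335 in *LHX1*, 1095 in *NOTO*, 719 in *FAM71B* and 849 in *PRSS55* cells. For *USP1* the deep levels were 87.1 CPM in *PIWIL4*, 333 in *CRABP1*, 486 in *CTCFL*, 1105 in *PIWIL1*, 1398 in *LHX1*, 1074 in *NOTO*, 140.3 in *FAM71B* and 381 in *PRSS55* cells. Both were thus highest in the *LHX1* cells, and they parted in the *FAM71B* cells, where *UBE2T* kept 719 CPM (95% interval 673 to 767) and *USP1* 140.3 CPM (95% interval 120.4 to 163). *WDR48*, whose product activates USP1, measured 160.4 CPM in SPG-like, 179 in SPC-like and 38.6 in SPT-like deep cells.

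*UBE2C* starts ubiquitin chains on cyclins together with the anaphase-promoting complex (APC/C). It had 0 counts in SSC and 0 in early-SPC, which allows up to 19.6 and 10.5 CPM, and 40.4 CPM in SPG, 63 in late-SPC and 18.4 in SPT. In deep cells there were separate maxima, 82.9 CPM (95% interval 70.5 to 96.9) in the *CRABP1* spermatogonia and 169 CPM (95% interval 153 to 185) in the *LHX1* spermatocytes, with 31.4 in the *PIWIL1* cells listed between them. *CDC20*, which encodes an activator of APC/C, was 58.4, 332 and 67.6 CPM in deep SPG-like, SPC-like and SPT-like cells.

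*UBE2B* encodes an E2 of the RAD6 type that modifies histones and the sliding clamp PCNA, and male mice without it are known to be infertile. Its counts came to 111 CPM in SSC, 87.3 in SPG, 24.6 in early-SPC, 84 in late-SPC and 276 in SPT. SPT was 3.59-fold (95% interval 2.65 to 4.83) above the other types. Deep *FAM71B* cells held 659.6 CPM (95% interval 616 to 706) and deep *PRSS55* cells 288 CPM (95% interval 260.5 to 318), while the *PIWIL1* and *LHX1* spermatocytes held 49.5 and 54.2. Among its known partner ligases, *RAD18* measured 688 CPM in early-SPC and 25.8 in SPT, and *RNF8* 281 and 77.3. *RAD18* and *RNF8* were thus lower in SPT than in early-SPC, where *UBE2B* was higher in SPT. Other ligases of the list were not set against *UBE2B*.

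*UBE2V1*, an E2 variant without a catalytic cysteine that pairs with an active E2 to form chains linked through a lysine of ubiquitin, came to 45.7 CPM in SSC, 116 in SPG, 116 in early-SPC, 359 in late-SPC and 221 in SPT. *UBE2M*, the E2 of the ubiquitin-like protein NEDD8, was 197 CPM in late-SPC against 56.6 in SPG, and in deep cells 46.1 CPM in *PIWIL4*, 74.5 in *CRABP1*, 96.6 in *CTCFL*, 344 in *PIWIL1*, 312 in *LHX1*, 251 in *NOTO*, 18.2 in *FAM71B* and 87.8 in *PRSS55* cells.

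Of the general E2s, *UBE2H*, the partner of the CTLH ligase, and *UBE2R2*, a partner of cullin ligases, were both high in spermatids. *UBE2H* counts came to 78.4 CPM in SSC, 58.2 in SPG, 21.1 in early-SPC, 48.3 in late-SPC and 155 in SPT, and the deep *PRSS55* cells held 229 CPM (95% interval 204 to 256). *UBE2R2* was highest in early-SPC among the germ types (140.5 CPM, against 95.7 in SPT), but reached 178 CPM in deep *FAM71B* cells against 11.4 in *LHX1* cells. *UBE2E3* went the other way, with 19.6 CPM in SSC, 74.3 in SPG, 35.1 in early-SPC, 12.6 in late-SPC and 11 in SPT, and in deep cells 79.8 CPM in *PIWIL4*, 119.7 in *CRABP1*, 62.1 in *CTCFL*, 9.06 in *PIWIL1*, 0.369 in *LHX1*, 0.535 in *NOTO*, 7.93 in *FAM71B* and 4.42 in *PRSS55* cells. *UBE2D1* had 14 counts over all germ types and was not ordered. *UBE2U*, a little-studied member, had 0 counts in SSC, 1 in SPG and 0 in early-SPC, but 31.5 CPM in late-SPC and 47.9 CPM (95% interval 25.5 to 81.8) in SPT.

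*UBE2O*, a large enzyme that acts as E2 and E3 at once, *UBE2Z*, which takes ubiquitin from the second E1 *UBA6*, and the paralogs *UBE2Q1* and *UBE2Q2* were all highest in SSC, SPG or early-SPC. *UBE2O* was 35.6 CPM in SPG and had 0 counts in early-SPC (up to 10.5 CPM). *UBE2Q2* came to 91.5 CPM in SSC, 142 in SPG, 211 in early-SPC, 60.9 in late-SPC and 36.8 in SPT. Among the deep stages it was instead highest in SPG-like cells, at 213 CPM against 95.1 in SPC-like cells. In deep cells *UBE2Z* went from 125 CPM (95% interval 109.5 to 142) in *CRABP1* to 2.38 CPM (95% interval 0.49 to 6.95) in *FAM71B* cells.

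**Figure D2:**
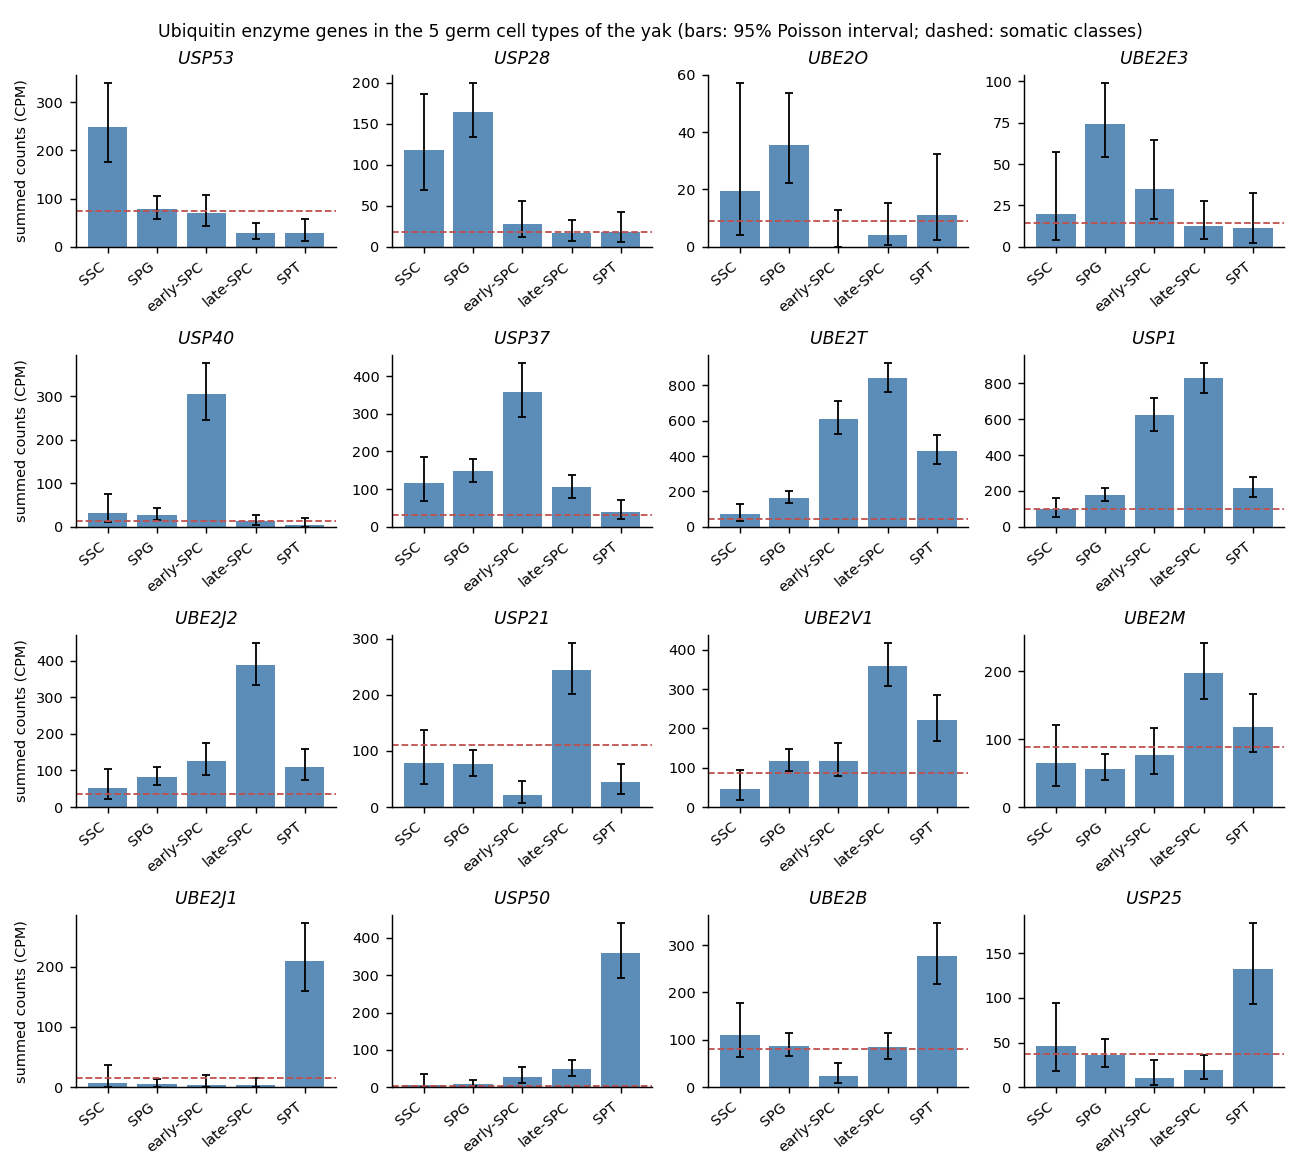
Levels of 16 members (panels) in the 5 yak germ cell types, as summed CPM with exact 95% Poisson intervals, with a dashed line at the level over the 8 somatic classes. *USP40* stood out in early-SPC, *UBE2J2* and *USP21* in late-SPC, and *UBE2J1* and *USP50* in SPT, with intervals apart from those of the other types.

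*USP50*, a little-studied member, had its highest level in SPT. Its counts came to 6.53 CPM in SSC, 8.08 in SPG, 28.1 in early-SPC, 48.3 in late-SPC and 361 in SPT, the last with a 95% interval of 293 to 439.7 CPM, and SPT was 14.9-fold (95% interval 10.1 to 22.5) above the other types. In deep cells it stood at 11.9 CPM in *PIWIL4*, 7.35 in *CRABP1*, 2.76 in *CTCFL*, 3.48 in *PIWIL1*, 2.21 in *LHX1*, 198 in *NOTO*, 679 in *FAM71B* and 824 in *PRSS55* cells. The interval in the *NOTO* cells was 178 to 219 CPM, above all clusters listed before it and below both SPT-like clusters. A *USP50* UMI was seen in all 71 SPT-like cells thinned to 10000 UMIs, in 7.36% of SPG-like and in 0.69% of deep somatic cells (16% and 3.1% without thinning).

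*USP2*, a protease linked to the circadian clock and the cell cycle, was 86.1 CPM in late-SPC and 51.5 in SPT against 14 in early-SPC. Its late-SPC subclusters differed, at 118 CPM (95% interval 82.2 to 164) in that of 196 and 33.4 CPM (95% interval 12.2 to 72.7) in that of 65 cells. In deep cells it reached 169.7 CPM (95% interval 155 to 186) in the *LHX1* cluster. *USP9X* lies on the X chromosome of mammals, whose genes are known to be silenced in pachytene spermatocytes. Its counts came to 65.3 CPM in SSC, 90.5 in SPG, 31.6 in early-SPC, 21 in late-SPC and 33.1 in SPT. In deep cells the levels were 185 CPM in *PIWIL4*, 136 in *CRABP1*, 113 in *CTCFL*, 4.18 in *PIWIL1*, 0.738 in *LHX1*, 12.3 in *NOTO*, 11.1 in *FAM71B* and 15.5 in *PRSS55* cells. The interval in the *LHX1* cells was 0.0893 to 2.66 CPM on 2 counts, and in the *PIWIL1* cells 1.53 to 9.1 CPM, so both lay far below the *CTCFL* cells. The SPT-like clusters stood between these levels. Reads of the Y-linked paralog *USP9Y*, if any were sequenced, could have been counted for *USP9X*, which was not tested. The other X-linked member, *USP27X*, had 1 count in the germ types and could not be followed.

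Low levels in *LHX1* cells were also found in members whose human orthologs are autosomal. *USP9X* was low in *PIWIL1* cells as well, and whether these members were as low there was not compared. *USP14*, the protease bound to the proteasome, went from 179 CPM (95% interval 149.9 to 213) in *CTCFL* to 2.21 CPM (95% interval 0.812 to 4.82) in *LHX1* cells. *USP22*, the protease of the SAGA complex that acts on histone H2B, had 0 and 0 counts in the *LHX1* and *NOTO* clusters, which allows up to 1.11 and 1.6 CPM, against 24.1 CPM in *CRABP1* cells. *USP24* went from 84.2 to 1.84 CPM and *USP33* from 163 to 5.9 CPM between the same clusters. In *PRSS55* cells *USP14* stood at 42 CPM (95% interval 31.8 to 54.5), whereas *USP24* was at 0.737 CPM.

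*USP28*, which stabilizes MYC and takes part in the DNA damage response, was highest in SPG. Its counts came to 118 CPM in SSC, 165 in SPG, 28.1 in early-SPC, 16.8 in late-SPC and 18.4 in SPT, and SPG was 5.01-fold (95% interval 3.43 to 7.45) above the other types. In deep cells the *PIWIL4* cluster, which also leads with *DLK1* and *MORC1*, held 539 CPM (95% interval 507 to 573), the *CRABP1* cluster 98.7 CPM (95% interval 85.1 to 114) and the *LHX1* cluster 1.48 CPM (95% interval 0.402 to 3.78). The SPG-like clusters thus differed from each other in this gene.

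*USP7*, the protease of MDM2 and p53, had a different split, with 809 CPM (95% interval 769 to 851) in the *CRABP1* cells against 449.8 CPM (95% interval 420.4 to 481) in the *PIWIL4* cells. It then went down to 213 CPM in the *LHX1* cells and up to 615 in the *PRSS55* cells. In the germ types it came to 163 CPM in SSC, 341 in SPG, 42.1 in early-SPC, 202 in late-SPC and 361 in SPT. Deep SPC-like cells were also the lowest deep stage, but at 306 CPM against 628 in SPG-like and 502 in SPT-like cells. The low point in spermatocytes was thus not of the same depth in both sets of cells, and the low level of early-SPC was not seen in deep SPC-like cells. *USP47*, linked to base excision repair, came to 196 CPM in SSC, 234 in SPG, 102 in early-SPC, 98.7 in late-SPC and 77.3 in SPT. *USP48*, which acts on histone H2A, was 102 CPM in early-SPC against 35.6 in SPG. It lay under the 2-fold line (log2 ratio 0.77 in place of 1.32) when every cell was weighted equally. Deep SPC-like cells held 81.7 CPM of *USP48* against 65.7 in deep SPG-like cells.

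Of the other histone proteases, *USP21* was highest among the germ types in late-SPC and *USP3* in SPT, and both were lowest in early-SPC. The early-SPC level of *USP21* rested on 6 counts, and its interval (7.73 to 45.9 CPM) overlapped that of SPT (22.8 to 77.2 CPM). Among the deep stages *USP21* was instead lowest in SPG-like cells, at 43 CPM, and *USP3* in SPC-like cells, at 73.7 CPM. *USP21* counts came to 78.4 CPM in SSC, 76 in SPG, 21.1 in early-SPC, 244 in late-SPC and 44.2 in SPT, and late-SPC was 4.2-fold (95% interval 3.12 to 5.68) above the other types. The intervals of its late-SPC subclusters overlapped, at 266 CPM (95% interval 211 to 332) and 206 CPM (95% interval 145 to 284). *USP3*, which removes ubiquitin from histones H2A and H2B, came to 137 CPM in SSC, 129 in SPG, 24.6 in early-SPC, 69.3 in late-SPC and 188 in SPT. Its SPT interval (140 to 247 CPM) overlapped those of SSC and SPG. *USP16*, an H2A protease, ranged from 274 CPM in SSC to 550.1 in late-SPC, and the deep *PIWIL4* cells stood at 872 CPM (95% interval 830.4 to 914) against 375 in *CRABP1* cells.

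*USP49*, which acts on histone H2B, was at 29.5 CPM in SPT and at or below 6.53 in each other type. The deep *FAM71B* and *PRSS55* cells held 66.6 CPM (95% interval 53.1 to 82.4) and 37.6 CPM, all other clusters at most 7.25. *USP44*, known from the mitotic checkpoint, was low throughout (6.46 CPM in SPG, 28.1 in early-SPC) and highest in the *LHX1* cells at 59 CPM (95% interval 50.2 to 68.9), an interval that holds the levels of the *NOTO* (51.8 CPM) and *PRSS55* cells (52.4 CPM).

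*USP40* and *USP37* were highest in early-SPC. *USP40*, a little-studied member, came to 32.7 CPM in SSC, 27.5 in SPG, 306 in early-SPC, 12.6 in late-SPC and 3.68 in SPT, and early-SPC was 16-fold (95% interval 10.4 to 25.3) above the other types. *USP37*, which acts on cyclin A at the start of DNA replication, came to 118 CPM in SSC, 147 in SPG, 358 in early-SPC, 105 in late-SPC and 40.5 in SPT. The deep *CTCFL* cells held the highest deep level of both, 139 CPM (95% interval 114 to 169) for *USP40* and 344 CPM (95% interval 302 to 389) for *USP37*, although for *USP37* the interval overlapped that of the *CRABP1* cells (276 to 326 CPM).

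*USP25*, which is linked to ER protein quality control, and *USP15*, a relative of *USP4*, were highest in SPT. *USP25* came to 45.7 CPM in SSC, 35.6 in SPG, 10.5 in early-SPC, 18.9 in late-SPC and 133 in SPT and in deep cells had 2 counts (0.738 CPM) in the *LHX1* but 246 CPM (95% interval 219 to 275) in the *FAM71B* cluster. *USP15* came to 118 CPM in SSC, 134 in SPG, 365 in early-SPC, 296 in late-SPC and 412 in SPT, but the SPT interval (340 to 496 CPM) overlapped that of early-SPC (298 to 443 CPM). From the *CRABP1* cells on, *USP15* was higher in each deep cluster than in the one listed before, from 149.6 CPM to 629.8 in *PRSS55* cells. The *PIWIL4* cells, listed first, are left out of this order. Deep SPG-like cells, which pool them with the *CRABP1* cells, stood at 151 CPM. *USP8*, needed for sorting receptors on endosomes, stood at 7.93 CPM (95% interval 3.8 to 14.6) in the *FAM71B* cluster between 259 in the *NOTO* and 164 in the *PRSS55* cells, so the SPT-like clusters were set apart by this gene. *USP5*, which breaks down free ubiquitin chains, was low in both, at 3.17 and 7.37 CPM, against 160.1 in the *LHX1* cells.

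In SSC, *USP53*, which encodes a protein of tight junctions, was highest at 248 CPM (95% interval 176 to 341), against 79.2 CPM in SPG, 70.2 in early-SPC, 29.4 in late-SPC and 29.5 in SPT. It was also present in EC-like cells (105 CPM) and lymphatic EC-like cells (138 CPM), whose markers SSC carried. Without the cells that fell outside germ-like clusters the log2 ratio of SSC to the other types was 2.38, against 2.15 with them. The deep SPG-like clusters held 47.7 and 45.1 CPM. *USP46* and *USP54* were next by ratio (log2 1.49 and 1.23) but rested on 6 and 5 counts in SSC, with intervals of the fold that include 1.

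The remaining members had no single high type. *USP34*, a large protease that acts in Wnt signalling, ranged only from 214 CPM in SPT to 288 in SPG, but in deep cells from 92 in *FAM71B* to 473 in *PIWIL1* cells. *USP4* was highest in SSC (176 CPM) and, in deep cells, in the *LHX1* cluster (205 CPM). *USP12* was highest in the *PIWIL1* cells, at 143 CPM (95% interval 124 to 164) against 4.14 CPM in the *CTCFL* cells. *USP10*, which acts on p53 and on stress granules, and *USP45* were lower in the clusters listed after the *PIWIL1* cells, with 5.16 and 13.9 CPM for *USP10* in *LHX1* and *NOTO* cells and 0.738 for *USP45* in *LHX1* cells. *USP39*, an inactive relative that belongs to the spliceosome, went from 48.1 CPM in *PIWIL1* to 0.737 in *PRSS55* cells. *USP42* (98.5 CPM) was highest in the *PIWIL4* cells and *USP38* (53.9 CPM) in the *FAM71B* cells. *USP13*, *USP19*, *USP20*, *USP30*, the mitochondrial protease, *USP31*, *USP35* and *USP43* stayed at or below 31.6 CPM in every germ type and at or below 23.5 in every deep cluster.

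**Figure D3:**
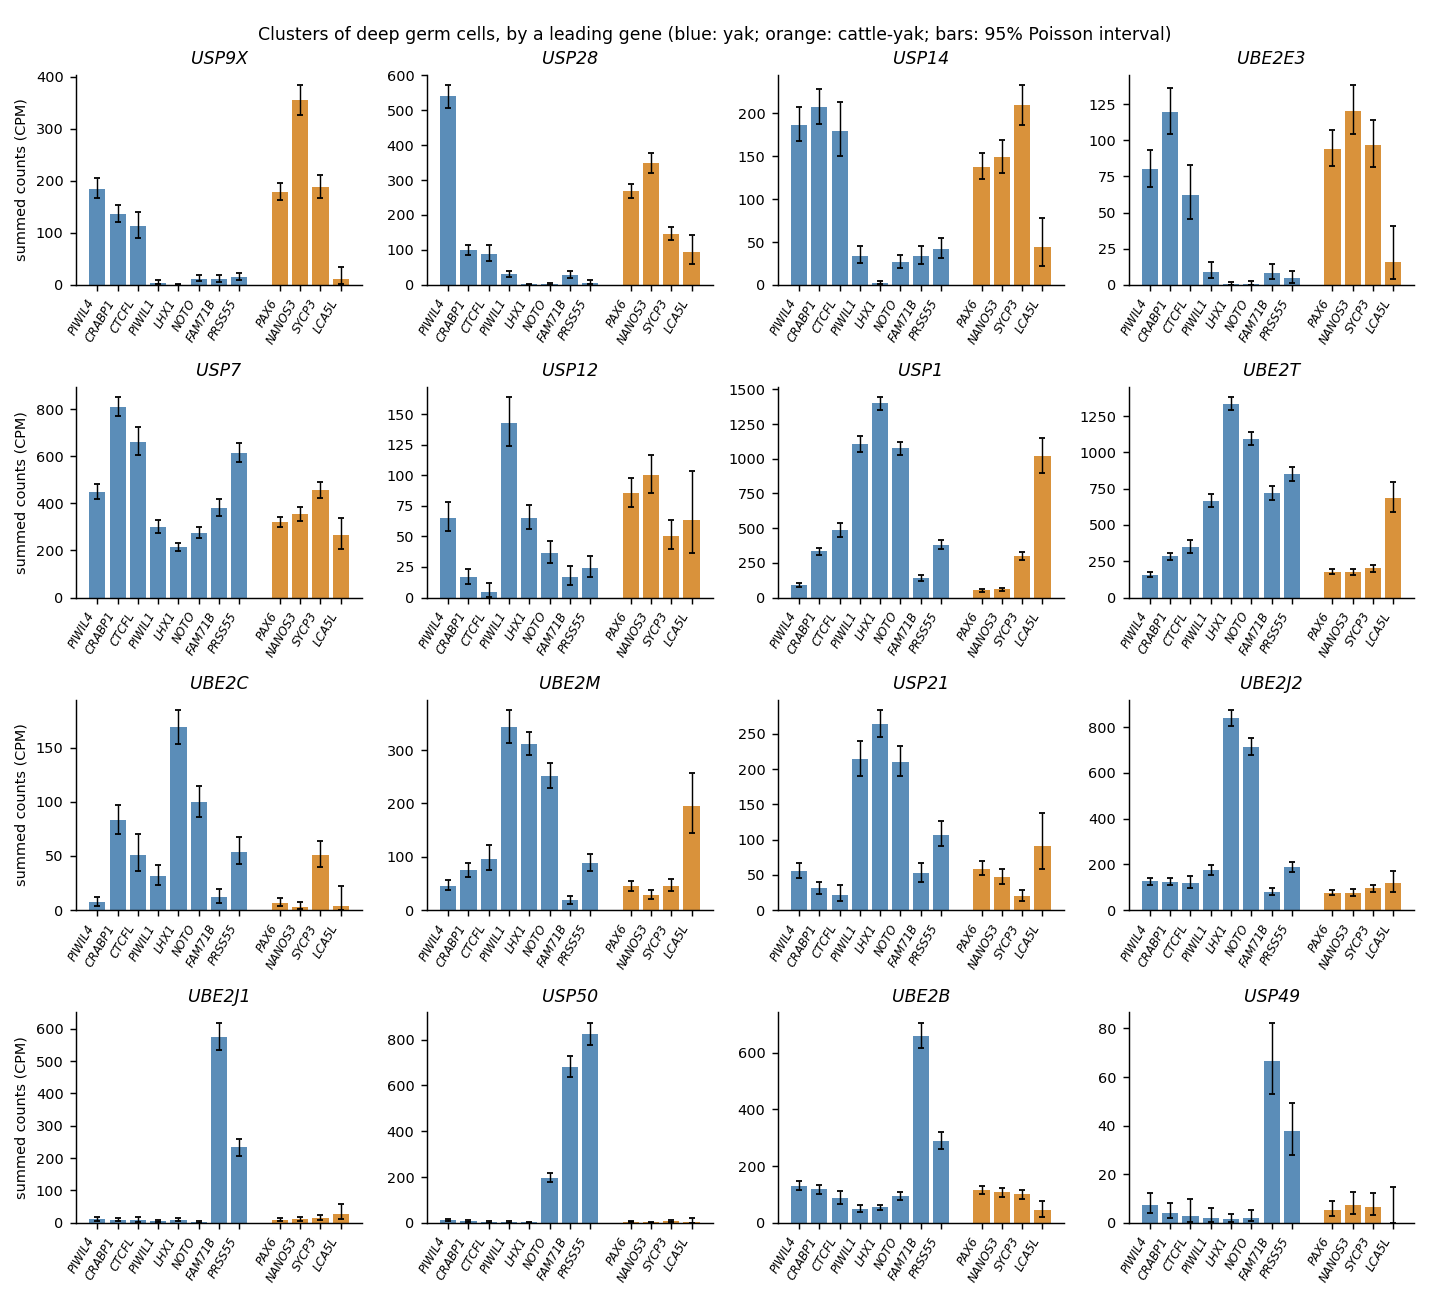
Levels of 16 members (panels) in 8 clusters of yak deep germ cells (blue) and 4 of cattle-yak deep cells (orange, the *PAX6* cluster unnamed), as summed CPM with exact 95% Poisson intervals. *USP9X* and *USP14* were lower in the *PIWIL1* and *LHX1* than in the *CTCFL* cells while *USP1*, *UBE2T* and *UBE2M* were high there, and *USP50* and *UBE2J1* were high in the *FAM71B* and *PRSS55* cells, which have no counterpart among the orange bars.

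Against the 8 somatic classes of the yak (7803 kept cells), 22 of 60 members were higher in the germ types and 0 lower, beside 30.5% of all genes higher and 16.1% lower. The share of members that were higher was near that of all genes, none was lower where many genes were, and the members' median log2 ratio was 0.69 against 0.24 over all genes. With the ratios centred on that median, or without the 10% of kept cells with the highest doublet scores, 1 member (*USP45*) was lower. In deep cells 27 of 61 members were higher in germ than in somatic cells and 3 lower, beside 45.1% and 20.4% of all genes, with a median of 0.92 against 0.77.

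With 1 CPM added to both sides, the largest log2 ratio of germ to somatic cells was that of *USP50*, at 74.8 CPM in germ types and 3.83 in somatic classes, or 19.5-fold (95% interval 15.1 to 25.3). *UBE2U* followed with 16.1 against 0.678 CPM, a plain ratio that is larger but rests on 29 germ and 20 somatic counts, then *UBE2T* with 446 against 46.7, or 9.54-fold (95% interval 8.74 to 10.4). *UBE2G2* and *UBE2C* completed the first 5 in that order, at plain ratios of 5.94-fold (95% interval 4.82 to 7.29) and 6.41-fold (95% interval 4.68 to 8.7). In deep cells these 5 were also higher, with *USP50* 143-fold (95% interval 75 to 312) and *UBE2C* 20.3-fold (95% interval 13.8 to 31.3) above deep somatic cells. At the other end *USP45*, *UBE2D1*, *USP20*, *USP46* and *USP38* had log2 ratios from -0.89 to -0.52, none of which reached the 2-fold line. *USP20* changed side in deep cells (log2 1.92), and *UBE2D1* (-2.63), *USP53* (-1.92) and *USP38* (-1.21) were the 3 members lower there.

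**Figure D4:**
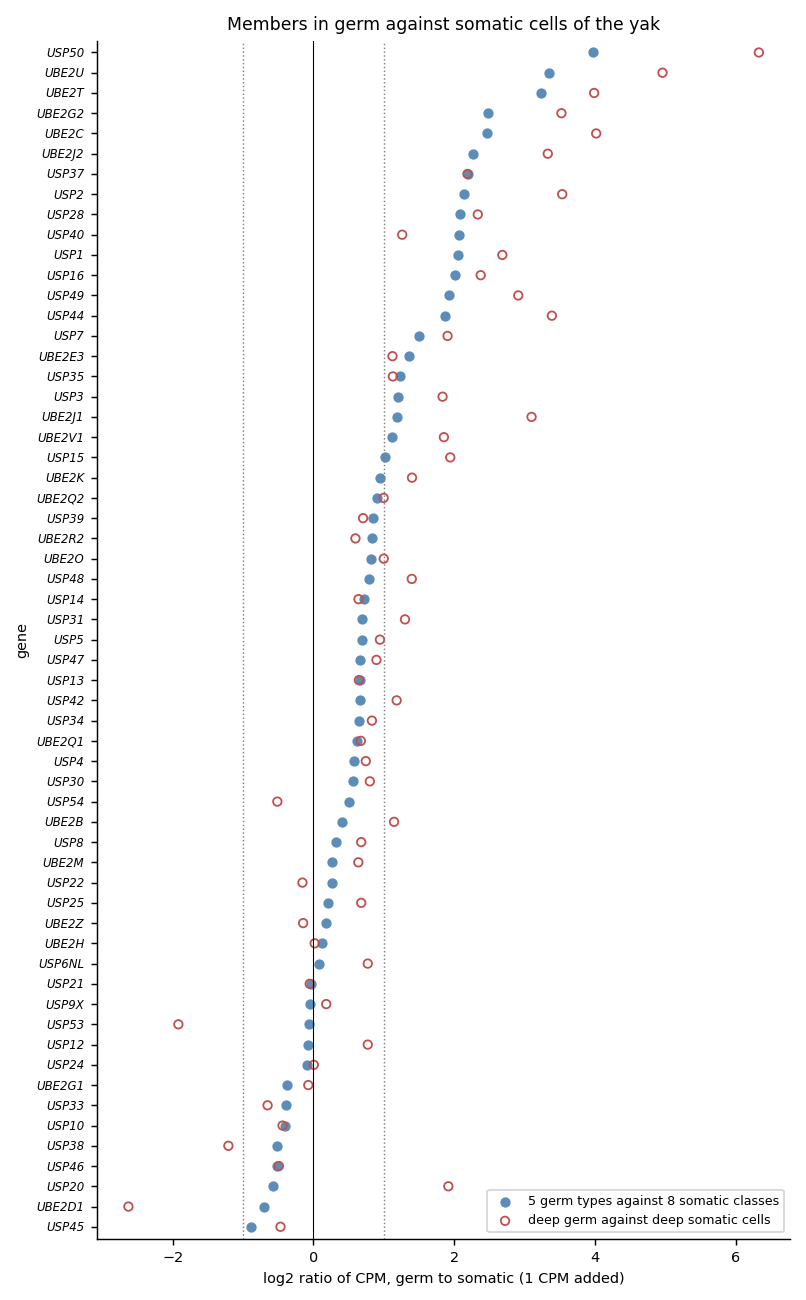
The log2 ratio of germ to somatic CPM (horizontal axis, 1 CPM added) of 59 of the 60 members with at least 20 counts (rows, ordered by the filled points), for the 5 germ types against the 8 somatic classes (filled) and for deep germ against deep somatic cells (open). Filled points reach the dotted 2-fold line on the right in 21 members drawn and on the left in none, and *USP50* is the farthest right in both.

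By role, both measured cell cycle and DNA repair E2s (*UBE2C*, *UBE2T*), 3 of 5 ER-linked E2s and 4 of 6 measured histone proteases were higher in the germ types, while none of 3 proteases of ubiquitin recycling (*USP5*, *USP13*, *USP14*) and none of 6 measured members with endosomal, ER or mitochondrial roles was. These groups hold 2 to 6 genes each, and 30.5% of all genes were higher in the same comparison, so the counts are a description only. The UBE2 genes summed to 1679.6 CPM in the germ types and 692 in the somatic classes, and the USP genes to 3359.8 and 1723 CPM. Each of the 5 germ types exceeded every somatic class in the USP sum, whose range over the 8 classes was 958 to 1904 CPM. For the UBE2 sum SSC, at 784 CPM, lay just above the highest somatic class, T/NK-like cells at 755, within its own interval.

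Fewer members set the somatic classes apart. Of 59 members with at least 20 counts, 3 were higher in T and NK cell-like (T/NK-like) cells than in the other classes (9.97% of all genes), 1 in B cell-like (2.6%), 2 in macrophage-like (10.5%) and 1 in EC-like cells (7.57%). The counts were 3 in lymphatic EC-like (6.14%), 0 in pericyte-like (3.93%), 3 in contractile muscle cell-like (MC-like, 6.84%) and 2 in stromal-like cells (10.8%). In each of the 8 classes the share of members was below that of all genes.

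A few members were high in a single class. *UBE2J1* was 104 CPM (95% interval 77.2 to 138) in B cell-like cells, a cluster with *MZB1* and *IGHM* among its leading genes, and from 5.69 to 23.8 CPM in the 7 other classes, so its high level was not limited to spermatids. *UBE2C* was 16.8 CPM (95% interval 14.1 to 19.8) in T/NK-like cells, at or below 4.26 elsewhere, and without a count in MC-like cells. *USP12*, which works with the same partner *WDR48* as *USP1*, was 114 CPM (95% interval 92 to 141) in macrophage-like cells against 16.6 to 36 CPM in the others. *USP54* stood at 26.6 CPM (95% interval 22.5 to 31.2) in EC-like cells, and *USP31* at 11.7 CPM (95% interval 8.34 to 16) in lymphatic EC-like cells.

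*USP6NL*, the Rab regulator, was highest in lymphatic EC-like (32.2 CPM) and macrophage-like cells (31.8 CPM). MC-like cells led in *USP2* (23.6 CPM (95% interval 18.9 to 29.1)) and *USP13* (7.04 CPM), and stromal-like cells in *USP46* (46.8 CPM (95% interval 40.1 to 54.2)). *USP45* (32.1 CPM) and *USP15* (206 CPM) were the other members higher in T/NK-like cells. *USP53* spanned a wide range, with 6.79 CPM (95% interval 5.11 to 8.83) in T/NK-like cells against 138 in lymphatic EC-like and 122 in stromal-like cells. *USP21* was first in B cell-like cells at 207 CPM, short of the 2-fold line.

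Between the libraries, few members of the same somatic class differed. In T/NK-like cells 4 of 56 members passed the 2-fold line in either direction (17.1% of all genes), in macrophage-like cells 3 of 37 (12.3%), in EC-like cells 2 of 54 (7.96%) and in lymphatic EC-like cells 2 of 50 (14.2%). The counts were 6 of 50 in pericyte-like (23.4%), 1 of 53 in MC-like (8.12%) and 1 of 54 in stromal-like cells (12.6%). In all 7 classes the share of members was below that of all genes, and these small counts changed with several settings. Of the members with at least 100 counts in both libraries together only *USP53* in T/NK-like cells and 3 members in pericyte-like cells passed the line.

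*USP53* in T/NK-like cells was 30.1 CPM in the cattle-yak and 6.79 in the yak, a 4.44-fold (95% interval 3.18 to 6.27) excess on 106 and 55 counts. The stromal marker list summed to 479 CPM in the cattle-yak and 68.3 in the yak T/NK-like cells, and *USP53* was high in stromal-like cells of the yak. The part of this signal in the difference was not tested. In pericyte-like cells *UBE2J2*, *USP25* and *USP37* were lower in the cattle-yak, by log2 ratios of -1.08, -1.05 and -1.04, on 6 to 8 cattle-yak counts each and beside a median of -0.26 over all genes. With ratios centred on that median 1 member of pericyte-like cells passed the line in place of 6. In the other classes the members with at least 100 counts lay between log2 -1.0 (*UBE2H*, lymphatic EC-like) and 0.90 (*USP6NL*, MC-like). *UBE2B* was among the 3 lowest in T/NK-like (-0.92), EC-like (-0.43) and stromal-like cells (-0.87), beside medians of all genes of -0.17, -0.08 and -0.25, and *UBE2H* in lymphatic EC-like, EC-like (-0.50) and MC-like cells (-0.73).

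Germ cells of the libraries were not of matching stages. The 1409 kept germ-like cells of the yak reached from spermatogonia to spermatids, while the 108 of the cattle-yak formed a single SPC-like cluster, and no cattle-yak cluster, kept or deep, was SPT-like. Over all germ-like cells 8 of 57 members passed the line, all lower in the cattle-yak (36.1% of all genes in either direction). *USP50* was 5.06 CPM in the cattle-yak against 129 in the yak, and *UBE2J1* 11.8 against 67.4. With clusters at Leiden resolution 2, which left 313 yak germ-like cells, 25 members passed it. *USP50* and *UBE2J1* were high in yak spermatids, and stage and library cannot be told apart in this comparison.

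Closer matches were sought after these values had been seen. In deep SPG-like cells (55 cattle-yak, 163 yak), 12 of 58 members passed the line (20.8% of all genes), 2 higher and 10 lower in the cattle-yak. The median mitochondrial share of these cells was 23.7% in the cattle-yak and 14% in the yak, and ratios without mitochondrial features were not computed for them. *USP9X* was 355 CPM against 161 in the yak, or 2.21-fold (95% interval 1.97 to 2.48) higher, and *USP12* 2.44-fold (95% interval 1.95 to 3.05) higher. *UBE2C* (3.04 against 44.8 CPM) and *USP1* (58.4 against 209 CPM) were lower. The yak SPG-like cells pooled the *PIWIL4* cluster, with 7.25 CPM of *UBE2C* and 87.1 of *USP1*, and the *CRABP1* cluster, with 82.9 and 333. In both genes the cattle-yak value lay below both yak clusters and closer to the *PIWIL4* cluster. No intervals are given for these levels, and the part of this mix of clusters in the difference was not tested. *USP9X* in these cattle-yak cells exceeded both yak clusters, which held 185 and 136 CPM. In the unnamed *PAX6* cluster of deep cattle-yak cells, given below, *USP9X* did not exceed the level of the yak *PIWIL4* cluster.

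In the SPC-like deep clusters that have *CTCFL* and *SYCP3* among their leading genes (63 cattle-yak, 40 yak cells), 5 of 53 members passed the line (24.3% of all genes). *USP12* was highest by ratio, with 50.7 CPM in the cattle-yak and 4.14 in the yak, or 12.2-fold (95% interval 4.04 to 60.7), the yak value resting on 3 counts. *USP5* was 2.09-fold (95% interval 1.45 to 3.1) higher, and *UBE2M*, *UBE2V1* and *USP44* were 2.1-fold (95% interval 1.48 to 2.96), 2.15-fold (95% interval 1.65 to 2.8) and 2.79-fold (95% interval 1.24 to 6.47) lower in the cattle-yak. The median mitochondrial share was 21.1% in the cattle-yak and 12.7% in the yak cluster. CPM includes mitochondrial counts in the total, and ratios without them were not computed for these clusters, so folds near 2 are uncertain. *USP9X*, *UBE2T* and *USP1* were within the line, at log2 ratios of 0.73, -0.79 and -0.69. In kept SPC-like cells (108 and 162), 10 of 45 passed it (26.3%), among them *USP9X* at 2.95-fold (95% interval 1.75 to 5.13) and *UBE2B* at 2.92-fold (95% interval 1.79 to 4.9) higher and *UBE2M* at 2.58-fold (95% interval 1.78 to 3.82) lower. Of the authors' types, 58 early-SPC and 66 late-SPC cells fell into SPC-like clusters of the yak. Stage and library therefore cannot be told apart in the kept SPC-like cells either.

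A further 10 deep cattle-yak cells formed an SPC-like cluster led by *LCA5L*, with spermatocyte markers at 4360.3 CPM and spermatid markers at 1001, near the 4943 and 1112 CPM of the yak *PIWIL1* cluster. They held 1017 CPM (95% interval 896 to 1149) of *USP1* and 687 CPM (95% interval 588 to 797) of *UBE2T*, close to the 1105 and 668 CPM of the *PIWIL1* cells. *USP9X* was 11.9 CPM (95% interval 2.46 to 34.8) on 3 counts, low as in the yak. *UBE2M* was 195 CPM (95% interval 144 to 257) against 344 and *USP21* 91.3 CPM (95% interval 57.9 to 137) against 214 CPM, both with intervals below the yak value. A cluster of 93 deep cattle-yak cells that met no naming rule shared the leading genes *PAX6* and *DLK1* with the yak *PIWIL4* cluster. It held 179 CPM of *USP9X*, 268 of *USP28* and 50.8 of *USP1*, against 185, 539 and 87.1 CPM in the yak cluster.

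**Figure D5:**
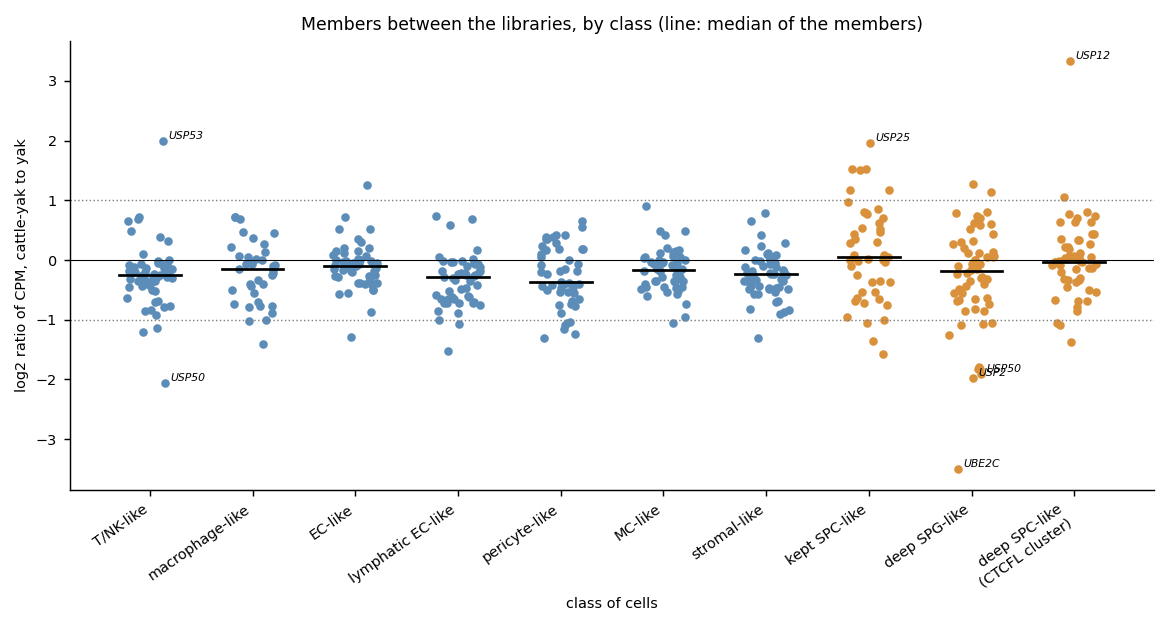
The log2 ratio of cattle-yak to yak CPM (vertical axis, 1 CPM added) of each member with at least 20 counts, in 7 somatic classes (blue) and 3 germ cell classes (orange), with a bar at the median of the members and dotted lines at 2-fold. Most points lie between the dotted lines, and *USP12* in the *CTCFL* cluster (log2 3.33) and *UBE2C* in deep SPG-like cells (-3.50) lie farthest out.

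The other parts of the pathway were followed by lists. *UBB*, a gene for ubiquitin itself, stood at 4715 CPM in deep SPC-like cells against 2007 in SPG-like cells. Of 7 measured E1 genes 4 were higher and 1 lower in the germ types (30.5% and 16.1% of all genes), and *UBA1*, the main E1 and X-linked in mammals, went from 224 CPM in deep SPG-like to 29.8 in SPC-like and 32.1 in SPT-like cells. Of 22 ligases and partners known from the testis 15 were higher and none lower, against 30.5% of all genes. That list was chosen for known roles in the testis, so its larger share is no independent result. *RNF151* (1687 CPM) and *KLHL10* (534 CPM), both known from spermatids, were high in SPT-like and at or below 2.46 CPM in the other deep stages.

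Of 25 other deubiquitinases, whose symbols did not meet the rule for members, 6 were higher and 1 lower in the germ types, beside 30.5% and 16.1% of all genes. *UCHL1*, which is also one of the markers used here for SPG-like cells, measured 1028 CPM in SPG and 12.6 in late-SPC. *OTUB2*, which cleaves ubiquitin chains, was 173 CPM in SPT and at or below 9.7 in the other types. The E2 *CDC34*, which lacks the family's symbol, was 390.2 CPM in SPT against 50.1 in SPG, and 705 CPM in deep SPT-like cells against 115 in SPC-like cells.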

How the data were processed

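Testis cells of a yak and a cattle-yak were captured in a 10x Genomics library each. The deposited files hold raw UMI counts per gene and cell barcode, which the authors made with Cell Ranger (version 5.0.0 in the matrix header, 2.1.1 in the submitters' processing notes) and STAR on the BosGru3.0 assembly. Cells with a mitochondrial share under 30% and with genes and UMIs no more than 2 SD above the mean were kept, those above either upper limit were analysed apart as deep cells, and the authors' barcode table gave the germ types. Cells were clustered with the Leiden algorithm (resolution 1, 2000 variable genes without the members, scanpy 1.11.5) and named from fixed marker lists when at least 3 markers were enriched. At its automatic threshold Scrublet marked 0 yak and 187 cattle-yak cells as doublets, and no cell was removed. How well its scores tell doublets apart in the yak was not tested, which limits the alternative that uses them. The 24 barcodes found in both libraries were kept. Counts were summed per group and given as CPM with exact Poisson intervals, and ratios with exact conditional intervals (scipy 1.17.1), with no test because each cross was 1 library. A ratio was called at 2-fold or more with 1 CPM added to both sides and at least 20 summed counts, and the scripts were tested on simulated counts. Named members were the 3 with the highest ratio in each germ type and deep stage, the 5 highest and lowest between germ and somatic cells, the 2 highest per somatic class, the 3 highest and lowest between libraries with at least 100 counts, and a fixed list, and others named were chosen after their values were seen. Values of 1 member and 1 gene of the lists are not reported here, though counts include them. Members and lists were chosen with earlier results of these data known. Alternatives were 5 CPM added, minimums of 50 and of no counts, CPM without mitochondrial and rRNA features, equal weight per cell, centred ratios, a mitochondrial share under 20%, other resolutions and removal of cells with high Scrublet scores. An unplanned alternative left out cells of the authors' germ types that fell outside germ-like clusters.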

Additional observations from a re-analysis of the deposited data

Results flagged for a closer look

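*UBE2G1*, an E2 of ER protein quality control, moved in opposite directions between deep germ cell stages of the libraries. The log2 ratio of deep SPC-like to deep SPG-like cells was -1.19 in the yak and 1.33 in the cattle-yak. Its levels were low, at 10.2 CPM in SPG-like and 3.9 in SPC-like deep cells of the yak, on 63 counts over the deep stages. No interval was computed for either ratio, so counting error may be large. The difference between the libraries was not tested, since each cross had 1 library. The stages were not matched either, because the yak SPC-like cells included the *PIWIL1* and *LHX1* clusters and most of those of the cattle-yak belonged to the *CTCFL* and *SYCP3* cluster.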

How the results depend on the processing

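Most results kept their size under the alternatives, with 106 of 151 counts and sums within 1.5 times or within their interval. Among the 151 are the counts of kept SPC-like, deep SPG-like and deep *CTCFL* cells, set against that of germ-like cells. Those are other cells and no other setting, and the kept SPC-like and deep SPG-like counts are among the 106. Of the ratios of genes named for the germ types and for germ against somatic cells, 217 of 220 stayed on the same side of the 2-fold line. These genes had been chosen by their ratios in the main setting. Ratios of genes named for deep stages, somatic classes or between the libraries were not recomputed. A minimum of 50 counts or of none cannot change a ratio, so the 25 ratios under each of these settings were the same by construction. Members higher in SSC numbered 1 with a minimum of 50 counts, 7 with none and 8 with centred ratios, in place of 4, and those higher in early-SPC 15 with centred ratios in place of 6. *USP45* became the 1 member lower in germ than in somatic cells with centred ratios (-1.13) and without the cells with the highest Scrublet scores (-1.11). The summed USP level of SPT against SPG was -0.21 on the log2 scale without mitochondrial and rRNA features. The numbers of members past 2-fold between the libraries were the least stable. With 5 CPM added they were 1 in T/NK-like, 1 in macrophage-like and 0 in EC-like, lymphatic EC-like, pericyte-like, MC-like and stromal-like cells. With at least 50 counts they were 1 in macrophage-like and 0 in EC-like, lymphatic EC-like and MC-like cells, and with no minimum 13 in macrophage-like, 7 in lymphatic EC-like, 10 in pericyte-like, 2 in MC-like and 2 in stromal-like cells. Without mitochondrial and rRNA features they were 1 in macrophage-like, 3 in pericyte-like, 2 in MC-like and 2 in stromal-like cells. With equal weight per cell they were 1 in lymphatic EC-like, 0 in MC-like and 2 in stromal-like cells. Centred ratios gave 1 in macrophage-like, 1 in pericyte-like, 0 in MC-like and 2 in stromal-like cells. A mitochondrial share under 20% gave 7 in T/NK-like, 5 in lymphatic EC-like, 2 in MC-like and 14 in germ-like cells. Leiden resolution 2 gave 1 in macrophage-like, 1 in pericyte-like, 0 in MC-like, 2 in stromal-like and 25 in germ-like cells. Lymphatic EC-like cells gave 1 without the cells with the highest Scrublet scores, and the deep *CTCFL* clusters, chosen after seeing the data, gave 5. A pericyte-like value at a mitochondrial share under 20% could not be had because fewer than 50 cattle-yak cells were left. The cause of these changes was not tested. No paired analysis was possible because each cross was 1 library. Counts limit what can be ordered, since 12 of 63 members had under 20 counts in the germ types.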
